A study of Mus musculus with 11 samples.

Results

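The clock repressors are the proteins that switch the circadian transcription loop off again: the period proteins (Per1, Per2, Per3), the cryptochromes (Cry1, Cry2), the nuclear receptors REV-ERB alpha and beta (Nr1d1, Nr1d2), the helix-loop-helix proteins DEC1 and DEC2 (Bhlhe40, Bhlhe41) and CHRONO (Ciart). These 10 genes were taken by symbol from the 48709 Ensembl mouse gene IDs of the count tables, each symbol matched a single ID, and all 10 passed the filter on low counts that left 16235 genes to test. RNA came from primary mouse hippocampal neurons cultured for 10 days at 20% oxygen, with 6 libraries from cells that stayed there (control) and 5 from cells moved to 1% oxygen for 4 h (hypoxia). The labels' protocol has control and hypoxic cells come from 1 isolation but does not say whether that holds across all libraries. No genotype, strain or age is given in the labels, and neither is the time of day at which the cultures were harvested or whether libraries of a group came from separate dishes, so each p-value speaks only of the spread among the libraries at hand, some of which may be technical.

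In the textbook loop, the activators CLOCK and BMAL1 (the product of Arntl) bind E-box sequences and drive transcription of Per, Cry, Nr1d1, Nr1d2, Bhlhe40, Bhlhe41 and Ciart. PER and CRY proteins enter the nucleus and inhibit CLOCK and BMAL1, the REV-ERB receptors repress Arntl from elements that they share with the ROR activators, and the DEC proteins and CHRONO act on the activators or on the E-boxes that the activators use. Several of these genes also answer signals from outside the loop: Per1 and Per2 are known to be induced in neurons by activity through CREB, and Bhlhe40 and Bhlhe41 are known targets of the hypoxia-inducible factors (HIF).

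After 4 h at 1% oxygen, 8 of the 10 repressor mRNAs were higher and none was lower at an adjusted p under 0.05 (edgeR quasi-likelihood test, Benjamini-Hochberg adjustment over all genes tested). Among all genes tested, 22.9% were called, 10.1% higher and 12.8% lower. The rises ran from 1.204-fold for Cry1 to 2.55-fold for Bhlhe40, and Per3 and Nr1d2 were not called. For 7 of the 8 risen genes every hypoxia library lay above every control library, as it did for 6.72% of all genes tested, and Cry1 was the exception. The median log2 fold change of the 10 genes was 0.60, beside -0.02 over all genes tested. The authors' deposited table of genes higher in hypoxia lists the same 8 symbols, and their table of lower genes lists none of the 10.

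**Figure D1:**
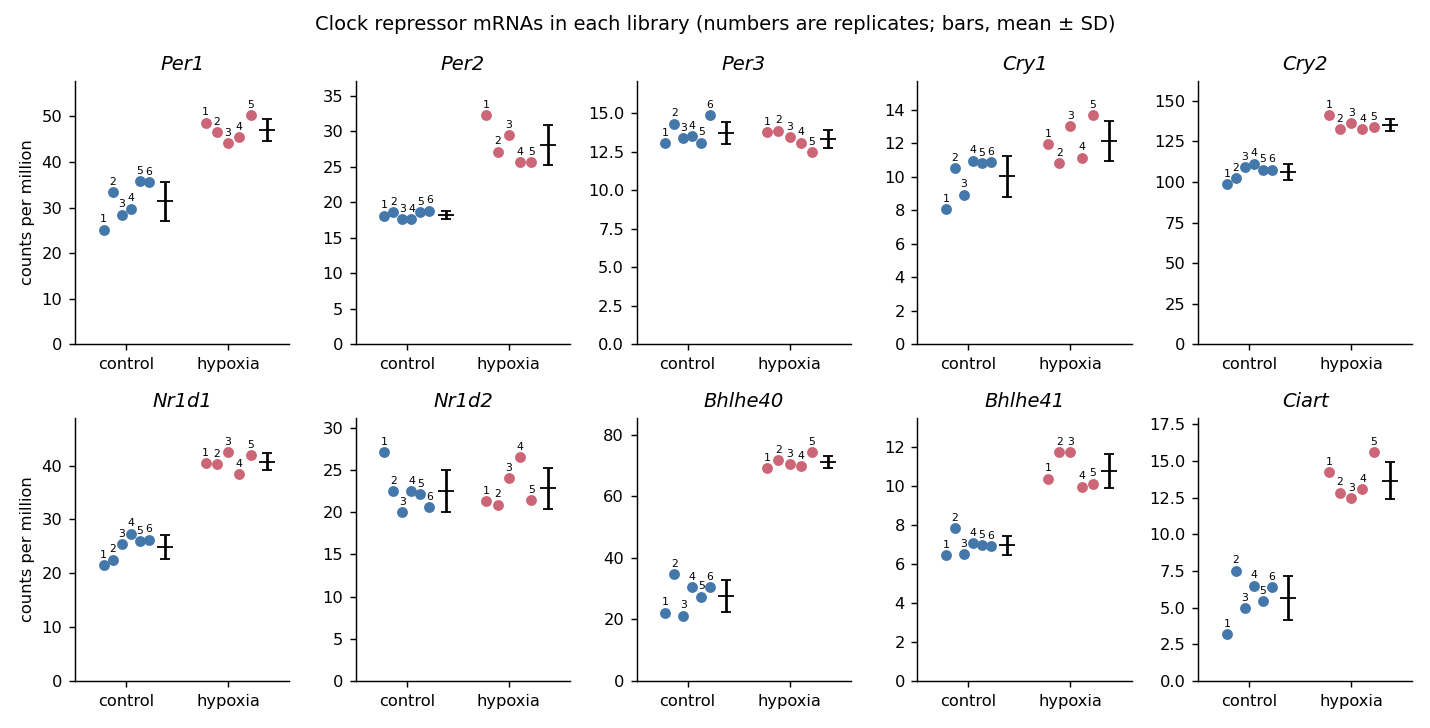
Level in CPM (raw counts per 1000000 scaled library counts; y axis, from 0) of the 10 clock repressor genes in each control library (blue) and each hypoxia library (red), numbered by replicate, with the mean ± SD of the group as a black bar. The hypoxia points stand clear of the control points for Per1, Per2, Cry2, Nr1d1, Bhlhe40, Bhlhe41 and Ciart, overlap for Cry1, and lie at the same height for Per3 and Nr1d2.

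Levels are in CPM, raw counts per 1000000 counts of the TMM-scaled library size. Total counts ran from 16619493 in control 1 to 31917157 in hypoxia 5, and a member's raw count in a library ran from 53 (Ciart) to 4237 (Cry2). Neuron markers were abundant, with a summed level over 8 genes of 5952 to 6487 CPM in control and 6000 to 6454 CPM in hypoxia and none of the 8 called. A separate list of 4 hippocampal excitatory neuron markers summed to 3636 to 3947 CPM in control and 3656 to 4023 CPM in hypoxia. Of these, Neurod6 was called higher (log2 fold change 0.13, edgeR adjusted p = 0.0188). The 6 astrocyte markers summed to 1349 to 1548 and 1332 to 1459 CPM, with Aqp4 called lower, and the 6 oligodendrocyte lineage markers to 47.1 to 86.1 and 46.1 to 65.3 CPM, with Mog called lower. Sums over the other lists were 13.9 to 15.8 and 13.7 to 16.3 CPM for 6 microglia markers, 40.7 to 46.6 and 42.8 to 52.2 CPM for 6 endothelial and mural markers (Pdgfrb was called higher) and 127 to 178 and 109 to 198 CPM for 5 fibroblast markers; no marker was at 0 in all libraries. Astrocyte markers were thus present beside neuron markers, the part of other cell types in the results was not tested, and in such bulk RNA fewer cells of a type and less RNA per cell cannot be told apart.

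For 8 of the 10 genes RefSeq's promoter table (GRCm38.p6) held a window, with 2 starts for Per1; Per2 and Bhlhe40 had no entry. The 250 bases before each start were searched on both strands for the E-box (CACGTG), the related E'-box (CACGTT), the D-box of the PAR bZIP factors (TTATGTAA or TTACGTAA), the 5-letter HIF core (ACGTG or GCGTG), the full CRE bound by CREB (TGACGTCA) and its shorter form (TGACG), and the ROR and REV-ERB element (TAGGTCA or TGGGTCA). An E-box always contains HIF cores and an E'-box always contains ACGTG, so those matches are not separate. The windows printed here are those of Per1 (first start), Per3, Nr1d1, Bhlhe41 and Ciart. They were picked to show the E-box or E'-box in genes that rose and its absence in a gene that was not called. The second Per1 window, which holds neither, is not printed. Printed windows read 5′ to 3′ along the gene's strand, with E-boxes, E'-boxes and D-boxes in capitals.

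The period genes divided. Per1 and Per2 rose by similar amounts and Per3 was not called. Per1 (ENSMUSG00000020893, GRCm38, chromosome 11, 69095217 to 69109960, plus strand) encodes a PAS-domain protein that holds cryptochromes in the repressor complex, and its mRNA is the period transcript best known as an immediate-early gene. In control, Per1 stood at 25.2 CPM in the lowest library, 31.5 CPM at the median and 35.9 CPM in the highest. In hypoxia 1 to 5 it stood at 48.7, 46.5, 44.2, 45.4 and 50.2 CPM. The groups did not overlap, and the lowest hypoxia library was above the highest control. Per1 rose 1.49-fold, a log2 fold change of 0.58 ± 0.08 (SE, edgeR adjusted p = 5.08e-05).

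Per2 (ENSMUSG00000055866, chromosome 1, 91415982 to 91459324, minus strand) encodes the period protein whose loss most disturbs rhythms in mice. The control libraries were tightly grouped, with a lowest value of 17.6 CPM, a median of 18.3 CPM and a highest value of 18.8 CPM, and the hypoxia libraries stood at 32.2, 27.1, 29.5, 25.7 and 25.7 CPM. Hypoxia 1 was the highest and hypoxia 4 and 5 the lowest, all above every control. The log2 fold change was 0.62 ± 0.06 (SE, edgeR adjusted p = 2.95e-06). The coefficient of variation was 2.90% in control and 10.1% in hypoxia.

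Per3 (ENSMUSG00000028957, chromosome 4, 151003652 to 151044665, minus strand), the period gene considered least needed for the core rhythm, lay at 13.1 to 14.9 CPM in control with a median of 13.5 CPM. In hypoxia it lay at 13.8, 13.9, 13.5, 13.1 and 12.5 CPM, inside the control range in 4 libraries and just under it in hypoxia 5. Its log2 fold change was -0.04 ± 0.06 (SE, edgeR adjusted p = 0.629). Per3 lies within the same-strand gene Camta1 without sharing an exon. The difference between the period genes was tested on their ratio within each library, which does not depend on how libraries are scaled. The log2 ratio of Per1 to Per3 was 1.18 ± 0.17 over the 6 controls and 1.82 ± 0.12 over the 5 hypoxia libraries (SD; exact permutation p = 0.00216, the smallest that 6 against 5 libraries allow, and 0.00325 after Benjamini-Hochberg adjustment over 6 pairs of paralogues). The log2 ratio of Per2 to Per3 went from 0.41 ± 0.06 to 1.07 ± 0.11 (exact permutation p = 0.00216, adjusted 0.00325). For Per1 over Per2 the ratio was 0.77 ± 0.18 and 0.75 ± 0.16, a difference of -0.02 that lay within the spread of the libraries (exact permutation p = 0.835, adjusted 0.835).

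The first Per1 window (chr11:69098699-69098948, plus strand) holds an E-box at positions -166 to -161, and the second (chr11:69099902-69100151) holds neither an E-box nor an E'-box; each holds a TGACG match, at -246 to -242 and -132 to -128. The Per3 window (chr4:151044666-151044915, minus strand) holds no E-box or E'-box and 2 D-boxes, at -205 to -198 and -158 to -151.
Per1, first start: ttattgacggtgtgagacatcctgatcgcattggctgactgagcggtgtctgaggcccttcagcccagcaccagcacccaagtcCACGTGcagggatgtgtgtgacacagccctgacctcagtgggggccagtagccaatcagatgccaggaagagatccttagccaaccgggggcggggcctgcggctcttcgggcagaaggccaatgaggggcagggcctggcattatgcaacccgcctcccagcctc
Per3: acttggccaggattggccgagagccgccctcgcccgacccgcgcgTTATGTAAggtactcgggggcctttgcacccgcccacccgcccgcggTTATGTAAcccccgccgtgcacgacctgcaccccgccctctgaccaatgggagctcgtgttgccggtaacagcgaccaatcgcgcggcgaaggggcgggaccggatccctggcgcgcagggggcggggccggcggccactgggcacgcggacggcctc

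The cryptochromes both rose, by the smallest fold changes of the 8 risen genes. Cry2 (ENSMUSG00000068742, chromosome 2, 92403646 to 92434043, minus strand) and Cry1 (ENSMUSG00000020038, chromosome 10, 85131700 to 85185064, minus strand) encode flavoprotein-like repressors that bind CLOCK and BMAL1 directly. Cry2 lay at 98.5 to 111 CPM in control with a median of 108 CPM, and at 141, 132, 137, 132 and 134 CPM in hypoxia. No library of one group reached the other. The rise was 1.27-fold, a log2 fold change of 0.35 with the smallest SE of the 10 genes, 0.04 (edgeR adjusted p = 7.62e-06).

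Cry1 was at 8.07 CPM in the lowest control, 10.7 CPM at the median and 10.97 CPM in the highest. The hypoxia libraries were at 11.98, 10.8, 13.1, 11.2 and 13.7 CPM. Hypoxia 2 lay inside the control range and the other 4 above it. The log2 fold change was 0.27 ± 0.09 (SE, edgeR adjusted p = 0.0376). This call was close to the threshold and was lost without control 3, hypoxia 1, hypoxia 3 or hypoxia 5 (adjusted p = 0.0827, 0.0571, 0.0915 and 0.0903). The log2 ratio of Cry1 to Cry2 was -3.41 ± 0.15 in control and -3.48 ± 0.14 in hypoxia, and the difference of -0.07 lay within that spread (exact permutation p = 0.396, adjusted over the 6 pairs 0.475). The Cry1 window holds an E-box at -60 to -55 and an E'-box at -79 to -74, and the Cry2 window an E'-box at -166 to -161.

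Of the REV-ERB receptors, heme-binding nuclear receptors that recruit corepressors, Nr1d1 rose and Nr1d2 was not called. Nr1d1 (ENSMUSG00000020889, chromosome 11, 98767932 to 98775333, minus strand) stood at 21.5 CPM in the lowest control, 25.8 CPM at the median and 27.4 CPM in the highest, and at 40.5, 40.2, 42.5, 38.4 and 42.0 CPM in hypoxia. The gap between the groups was wide beside their spread. The log2 fold change was 0.71 ± 0.06 (SE, edgeR adjusted p = 4.76e-07). The end of Nr1d1 overlaps the thyroid hormone receptor gene Thra on the opposite strand, with 263 shared exonic bases (8.55% of the exonic bases of Nr1d1), and the library kit does not mark strand. Thra stood at 1473 ± 112 CPM in the controls and at 1465 ± 88.1 CPM after hypoxia, with a log2 fold change of -0.01 (edgeR adjusted p = 0.941).

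Nr1d2 (ENSMUSG00000021775, chromosome 14, 18204054 to 18239127, minus strand) had a lowest control of 20.0 CPM, a median of 22.3 CPM and a highest of 27.1 CPM. The hypoxia values were 21.3, 20.9, 24.0, 26.5 and 21.4 CPM, all inside the control range. Its log2 fold change was 0.03 ± 0.08 (SE, edgeR adjusted p = 0.838). The log2 ratio of Nr1d1 to Nr1d2 moved from 0.15 ± 0.27 to 0.84 ± 0.18, with no overlap between the groups (exact permutation p = 0.00216, adjusted 0.00325). In control 1 the ratio was lowest, at -0.33, as this library had the lowest Nr1d1 and the highest Nr1d2 of the controls. The Nr1d1 window (chr11:98775378-98775627, minus strand) holds an E'-box at -28 to -23 and no E-box, and the Nr1d2 window holds neither.
Nr1d1: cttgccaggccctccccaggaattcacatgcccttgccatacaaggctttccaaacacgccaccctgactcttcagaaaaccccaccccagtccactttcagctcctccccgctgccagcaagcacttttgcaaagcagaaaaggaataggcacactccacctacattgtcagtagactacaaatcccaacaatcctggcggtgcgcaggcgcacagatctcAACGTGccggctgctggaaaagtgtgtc

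The DEC genes both rose, Bhlhe40 by more. Bhlhe40 (ENSMUSG00000030103, chromosome 6, 108660629 to 108666925, plus strand) encodes DEC1, which competes for E-boxes. It lay at 21.3 CPM in the lowest control, 28.9 CPM at the median and 34.7 CPM in the highest, and at 69.2, 71.8, 70.5, 69.8 and 74.4 CPM in hypoxia. The controls were spread widely, with a coefficient of variation of 18.7%, and the hypoxia libraries narrowly, at 2.91%. The log2 fold change of 1.35 (SE 0.09) was the 29th highest of all genes tested (edgeR adjusted p = 7.98e-08).

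Bhlhe41 (ENSMUSG00000030256, chromosome 6, 145858243 to 145865558, minus strand) encodes DEC2, its paralogue. It stood at 6.46 to 7.85 CPM in control, with a median of 6.97 CPM, and at 10.4, 11.7, 11.8, 9.99 and 10.1 CPM in hypoxia. Hypoxia 2 and 3 were the highest, and no hypoxia library reached down to the controls. It rose 1.55-fold, a log2 fold change of 0.63 ± 0.07 (SE, edgeR adjusted p = 1.72e-05). An unnamed opposite-strand gene model shares 19.0% of its exonic bases and had 59 counts over all libraries. The log2 ratio of Bhlhe40 to Bhlhe41 went from 1.97 ± 0.19 to 2.72 ± 0.12, a 1.68-fold shift toward Bhlhe40 with no overlap between groups (exact permutation p = 0.00216, adjusted 0.00325). The Bhlhe41 window (chr6:145865421-145865670, minus strand) holds an E-box at -153 to -148 and HIF cores outside it at -119 to -115 and -66 to -62. A HIF core outside an E-box or E'-box also lay in a window of each other gene searched, Per3 and Nr1d2 included.
Bhlhe41: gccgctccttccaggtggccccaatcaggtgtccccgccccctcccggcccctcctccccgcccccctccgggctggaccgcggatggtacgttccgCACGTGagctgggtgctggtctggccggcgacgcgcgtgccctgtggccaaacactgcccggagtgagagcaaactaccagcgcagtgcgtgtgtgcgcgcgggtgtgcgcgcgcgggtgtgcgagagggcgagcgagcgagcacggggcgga

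Ciart (ENSMUSG00000038550, chromosome 3, 95878503 to 95882251, minus strand) encodes CHRONO, a repressor that binds BMAL1. It stood at 3.17 CPM in the lowest control, 5.91 CPM at the median and 7.52 CPM in the highest. The hypoxia libraries stood at 14.3, 12.8, 12.5, 13.1 and 15.6 CPM. The highest control was far under the lowest hypoxia library, although control 1 alone was well under the other controls. Ciart rose 2.37-fold, a log2 fold change of 1.25 with the largest SE of the 10 genes, 0.14 (edgeR adjusted p = 8.54e-06). Its window (chr3:95882229-95882478, minus strand) holds 3 E-boxes, the most of any window of the group, at -116 to -111, -58 to -53 and -44 to -39.
Ciart: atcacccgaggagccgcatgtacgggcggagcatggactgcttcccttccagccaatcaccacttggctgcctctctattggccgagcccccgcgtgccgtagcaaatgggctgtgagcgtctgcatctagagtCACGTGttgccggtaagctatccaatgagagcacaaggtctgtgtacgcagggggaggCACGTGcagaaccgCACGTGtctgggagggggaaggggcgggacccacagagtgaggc

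**Figure D2:**
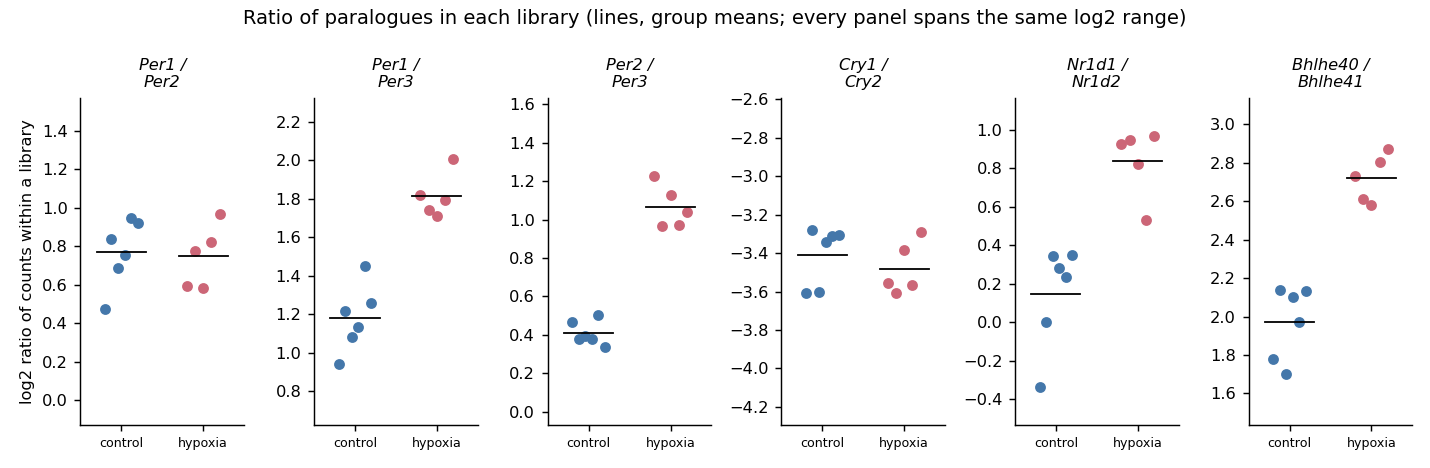
Log2 ratio of the counts of 2 paralogues within each library (y axis; every panel spans the same log2 range), for control (blue) and hypoxia (red), with the group mean as a line. The groups are apart for Per1 over Per3, Per2 over Per3, Nr1d1 over Nr1d2 and Bhlhe40 over Bhlhe41, and overlap for Per1 over Per2 and Cry1 over Cry2.

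Over the 9 windows of the group, 4 held an E-box, against 6.02% of the 32851 windows in the table, and 3 held an E'-box, against 3.85%. The HIF core was in all 9 windows and in 38.6% of all windows, and in 56.8% of the 12251 windows whose GC content lay in the range of the group's windows (54.8 to 73.6%); the E-box was in 8.66% and the E'-box in 4.14% of those. TGACG was in 4 of the 9 (both windows of Per1 and those of Cry1 and Cry2), in 17.8% of all windows and in 25.7% of those in the GC range. The full CRE was in none of the 9, in 1.55% of all and in 2.62% in the GC range, and the ROR and REV-ERB element was in none of the 9, in 5.38% of all and in 4.52% in the GC range. The D-box was in the Per3 window, in 0.931% of all and in 0.327% in the GC range. An E-box or E'-box was present in a window of each of the 6 risen genes that had one and in neither of the windows of Per3 and Nr1d2. These are matches of letters, seen after the expression values were known, in a short stretch that leaves out distant elements.

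**Figure D3:**
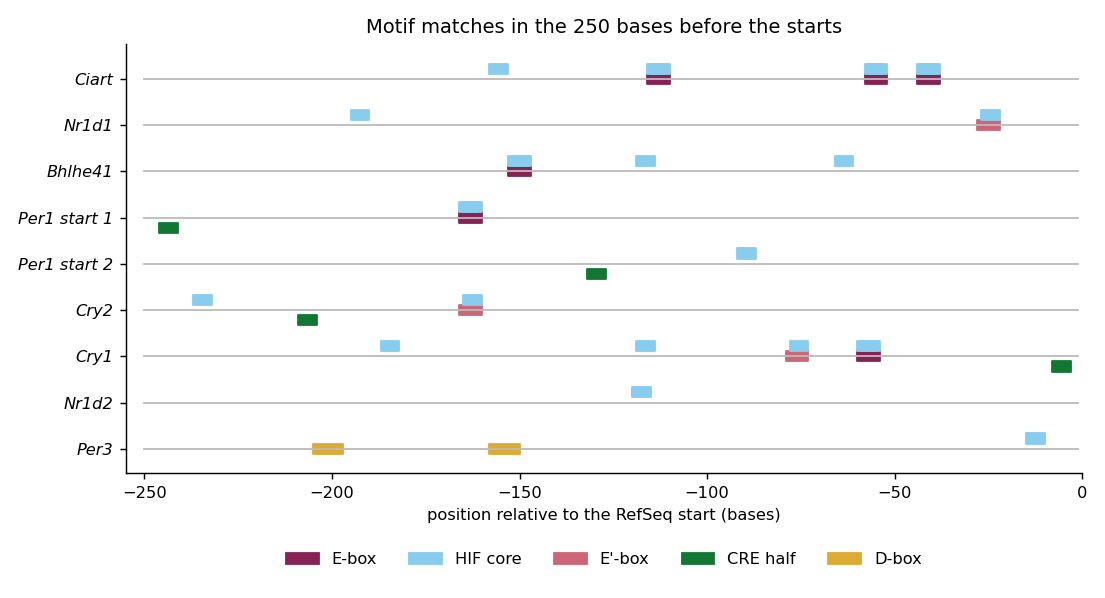
Motif matches in the 250 bases before each RefSeq start (x axis, bases relative to the start), with genes in order of log2 fold change from the top. E-boxes (dark red) and E'-boxes (pink) lie in windows of Ciart, Nr1d1, Bhlhe41, Per1, Cry2 and Cry1, D-boxes (yellow) only in that of Per3, and HIF cores (light blue, drawn above the line) in all 9 windows, while TGACG matches are drawn below the line in green.

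Levels of different genes were compared per length, as CPM divided by the length of annotated exons (GENCODE M21) in kilobases (RPKM). In control, Cry2 was the highest at 16.8 ± 0.746 RPKM, followed by Nr1d1 at 8.08 ± 0.748, Bhlhe40 at 5.90 ± 1.10, Per1 at 5.57 ± 0.763, Nr1d2 at 4.16 ± 0.463, Per2 at 3.11 ± 0.0902, Cry1 at 3.01 ± 0.367, Ciart at 2.504 ± 0.670, Per3 at 1.43 ± 0.0754 and Bhlhe41 at 1.04 ± 0.0743 RPKM (SD, n = 6). The ranges of neighbours in this order overlapped except between Cry2 and Nr1d1, Nr1d2 and Per2, and Per3 and Bhlhe41. In hypoxia, Bhlhe40 stood second at 15.1 ± 0.441 RPKM, behind Cry2 at 21.4 ± 0.577 and ahead of Nr1d1 at 13.2 ± 0.527 RPKM (SD, n = 5), and Bhlhe40 was above Nr1d1 in 5 of 5 hypoxia libraries whereas Nr1d1 was above Bhlhe40 in 5 of 6 controls. Ciart moved from below Cry1 to above Per2, at 6.04 ± 0.564 RPKM, and Bhlhe41, at 1.61 ± 0.131 RPKM, stood above Per3, at 1.39 ± 0.0595 RPKM, without overlap. In the hypoxia order only Per2 and Nr1d2, and Nr1d2 and Cry1, were neighbours with overlapping ranges.

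Control 1, the library with the fewest counts, was the lowest control for 6 of the 8 risen genes (Per1, Cry1, Cry2, Nr1d1, Bhlhe41 and Ciart), and its median deviation from the control mean over the 8 was -0.25 on the log2 scale, beside -0.11 to 0.10 in the other controls. The corresponding medians in the hypoxia libraries lay between 0.53 in hypoxia 4 and 0.72 in hypoxia 3. Without control 1 the same number of members, 8, was called higher.

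**Figure D4:**
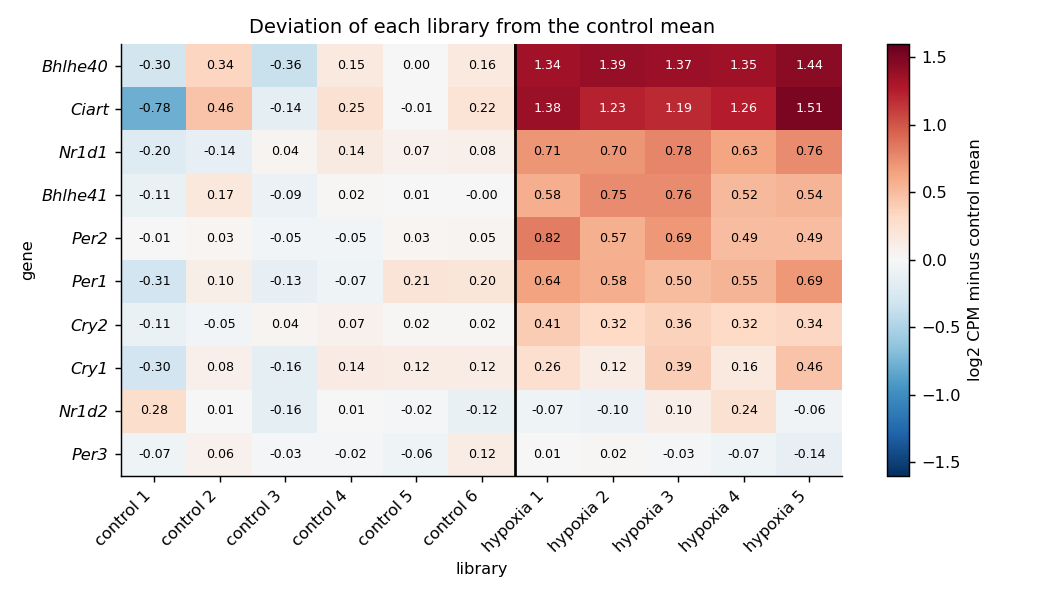
Log2 CPM of each gene in each library minus the gene's control mean (colour and printed value), with genes in order of log2 fold change and a line between control and hypoxia. Hypoxia entries are above 0 for the upper 8 genes, Per3 and Nr1d2 show both signs, and control 1 is the lowest control for Ciart (-0.78), Per1 (-0.31) and Cry1 (-0.30).

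On the activating side of the loop, Rora, Rorb and Arntl were called higher and Clock lower among 6 activators tested. These were 50.0% and 16.7% of the list, beside 10.1% and 12.8% over all genes tested, and its median log2 fold change was 0.09. Rora, a ROR receptor that activates Arntl, rose from 15.3 ± 1.31 to 24.8 ± 2.48 CPM (log2 fold change 0.70, SE 0.07, edgeR adjusted p = 6.14e-06). Arntl rose 1.13-fold, from 24.2 ± 1.24 to 27.4 ± 1.36 CPM (edgeR adjusted p = 0.0161). Rorb rose 1.27-fold (adjusted p = 0.0265), a call lost without control 3, hypoxia 2, hypoxia 3 or hypoxia 5 (adjusted p up to 0.0763). With the replicate number as a block both calls were lost (edgeR adjusted p = 0.0570 for Arntl and 0.0754 for Rorb). Clock was at 114 ± 4.90 CPM in the controls and 104 ± 5.37 CPM after hypoxia (log2 fold change -0.13, edgeR adjusted p = 0.0406). This call was lost in 14 of 18 alternatives, in which the fit without control 6 is counted more than once. Among them were RLE scaling factors (adjusted p = 0.0716), no filter on low counts (0.0949), DESeq2 (0.0650) and any 1 of 9 libraries left out (up to 0.111 without control 1). In the authors' own comparison Clock was listed as lower (log2 fold change -0.12, their adjusted p = 0.00959) and Arntl as higher (0.18, 0.00765).

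Among the output factors, Nfil3, a bZIP repressor that opposes the PAR bZIP activators at D-boxes, rose from 16.5 ± 0.984 to 34.3 ± 2.11 CPM, and Tef, a PAR bZIP activator, rose 1.12-fold from 187 ± 5.07 to 210 ± 4.84 CPM. Dbp, the PAR bZIP gene with the strongest known rhythm, was at 2.77 ± 0.331 and 3.31 ± 0.578 CPM (edgeR adjusted p = 0.153), and Hlf had a log2 fold change of -0.0044 and was not called. Of 17 kinases, ubiquitin ligases and cofactors that act on repressor proteins, 2 were higher (11.8%) and 3 lower (17.6%), shares near the 10.1% and 12.8% over all genes tested. Nampt, which makes the NAD precursor used by SIRT1, rose from 87.3 ± 6.76 to 114 ± 3.34 CPM, and Csnk1d, a kinase that phosphorylates PER proteins, rose 1.09-fold. Prkaa1, a catalytic subunit of the AMP-activated kinase that phosphorylates cryptochromes, fell from 47.4 ± 1.93 to 37.2 ± 2.16 CPM, the deacetylase gene Sirt1 from 17.2 ± 1.92 to 13.4 ± 0.926 CPM, and Usp2, a deubiquitinase, was at a log2 fold change of -0.19 (edgeR adjusted p = 0.0381). The call of Usp2 was lost with no filter on low counts (adjusted p = 0.0979) and without control 1, 4, 5 or 6 or hypoxia 2 or 4 (adjusted p up to 0.132), which left 2 lower genes.

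**Figure D5:**
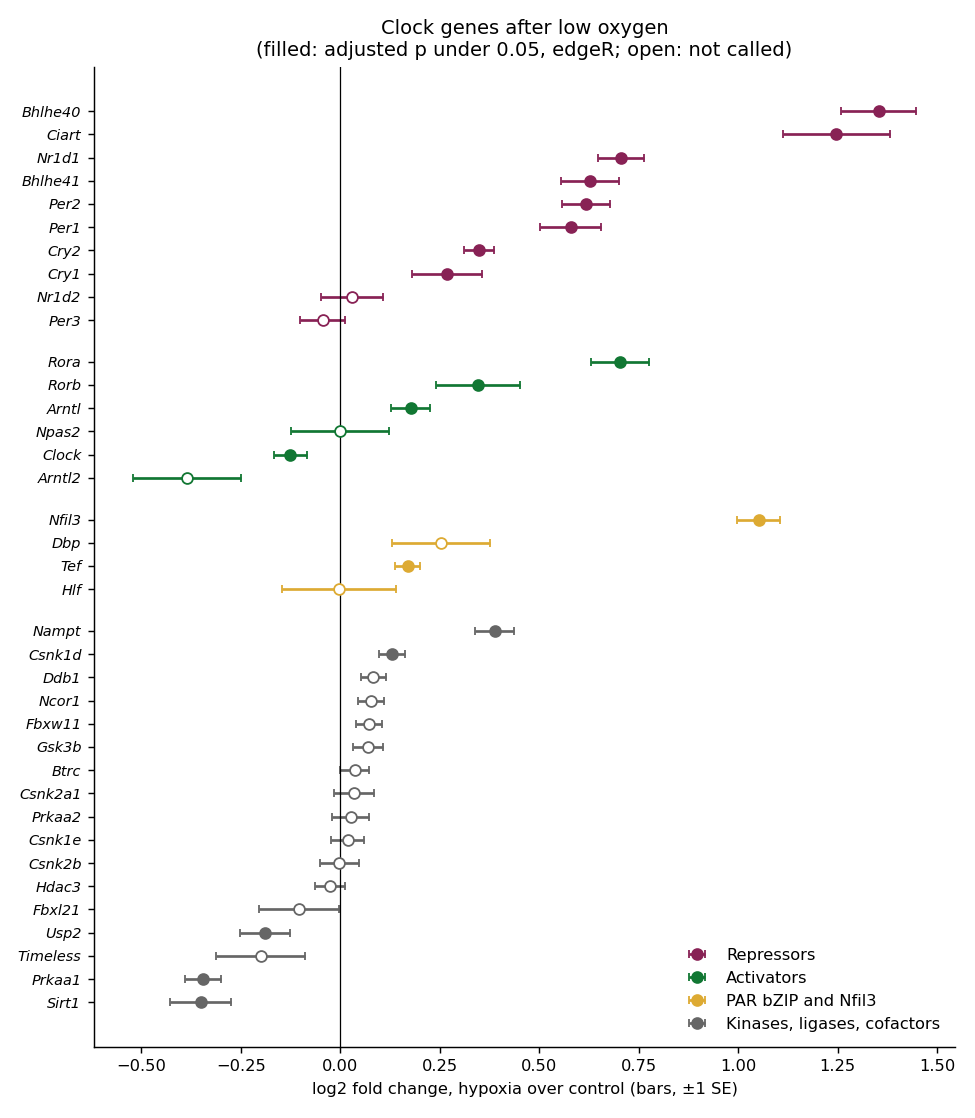
Log2 fold change of hypoxia over control with ±1 SE (x axis) for the repressors, activators, output factors and the kinases, ligases and cofactors of the repressor proteins, filled where the edgeR adjusted p was under 0.05. The repressors reach 1.35, Nfil3 stands at 1.05 and Rora at 0.70, while 12 of the 17 modifier genes are open symbols.

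Most genes of the 2 lists drawn up for the external routes known to induce these genes were higher as well. Of 15 HIF target genes 14 were higher (93.3%, beside 10.1% over all genes tested) and none lower, and Bnip3 was not called. The list's median on the log2 scale was 1.07. Slc2a1 rose 2.94-fold, Kdm3a 2.496-fold, Ero1l 2.42-fold and P4ha1 2.02-fold. Of 10 activity genes listed as CRE-driven 7 were higher (70.0%, beside the same 10.1%) and none lower, and the list's median on the log2 scale was 0.83. Egr1 rose 2.86-fold, Fos 2.998-fold, Dusp1 2.70-fold and Npas4 3.55-fold. Junb, Crem and Sik1 were not called (log2 fold change 0.54, 0.03 and -0.25). The part of either route in the rise of the repressors, or of the listed genes, was not tested.

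The genes whose log2 CPM followed a repressor most closely over the 11 libraries were sought among 10637 named genes with a mean of at least 5 CPM outside the group. For Bhlhe40 they were the glucose transporter gene Slc2a1 (Pearson r = 0.998), the collagen hydroxylase gene P4ha1 (0.998) and the adenylate kinase gene Ak4 (0.998). For Per1 they were Ddit4, which encodes an mTORC1 inhibitor (r = 0.980), the netrin receptor gene Unc5b (0.974) and Rassf1 (0.973), and for Nr1d1 they were the chloride transporter gene Clcn6 (0.986), the cysteinyl-tRNA synthetase gene Cars (0.985) and the helicase gene Ddx24 (0.984). The difference between the groups enters each such r. The genes were picked by r over these same 11 libraries, which also favours high values in what follows. For deviations from each group's mean, r was 0.974, 0.968 and 0.979 for the genes named with Bhlhe40, 0.891, 0.889 and 0.851 for those named with Per1, and 0.873, 0.786 and 0.749 for those named with Nr1d1, each in the order above and as a description of 11 libraries. In the controls Slc2a1 was lowest in control 3 (16.1 CPM) and control 1 (17.4 CPM) and highest in control 2 (29.0 CPM), the same libraries in which Bhlhe40 was lowest (21.3 and 22.2 CPM) and highest (34.7 CPM).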

How the data were processed

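Polyadenylated RNA of 6 control and 5 hypoxia libraries was prepared (TruSeq RNA Library Prep Kit v2) and read as 50 bp single ends, per the labels' protocols; the kit does not mark strand. The authors deposited whole-number read counts per Ensembl gene ID, with no scaling. The submitters' processing notes name STAR 2.5.2b, Subread 1.5.1 with featureCounts, DESeq2 and FastQC 0.11.5 and the build mm10. The gene annotation, strand setting and rule for multi-mapping reads were not given in the sources used here. The authors' deposited tables of their own comparison give a log2 fold change and an adjusted p-value per gene, per the file headers; their 22 per-library columns were not used.

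Symbols came from GENCODE M21 (GRCm38, the same build as mm10; 48349 of 48709 IDs matched), which also gave coordinates and exon lengths. Counts were filtered by filterByExpr, scaled by TMM and tested with edgeR 4.0.16 in R 4.3.3 (glmQLFit with robust FALSE, glmQLFTest, no covariate); the 16235 genes tested held 99.9% of counts. The SE of a log2 fold change is its size over the square root of F. The code was tested on simulated counts. Paralogue ratios, with a prior count of 0.5, were compared by an exact 2-sided permutation test over libraries of the absolute difference of group means. Alternatives were RLE factors, library totals, DESeq2 1.42.0, no filter, a mean CPM of at least 1, the replicate number as a block, each library left out, and a prior count of 5. No 2 libraries of a group were closer than sampling noise (lowest chi-square over degrees of freedom 2.31 in 25 pairs). Controls 1 and 2 stood apart from the other controls. This measure ran from 23.0 to 26.3 between control 2 and controls 3 to 6. Between control 1 and the other controls it ran from 8.51 to 14.0. Among controls 3 to 6 it ran from 2.31 to 4.98, and among the hypoxia libraries from 2.44 to 9.92. Of the listed partner genes, 2 are not reported here and are left out of the counts. The members and gene lists were chosen with earlier results of these data known. The text names all members, up to 4 called genes per partner list with the smallest p-values, and Clock, Arntl, Dbp and Nfil3; likeness was sought for Per1, Nr1d1 and Bhlhe40, leaving out predicted genes. Thra, Usp2, Hlf and the other genes that counts of 5 or fewer cover were named after their values were seen.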

Additional observations from a re-analysis of the deposited data

Results flagged for a closer look

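Nr1d2 in control 1 stood at 27.1 CPM while the other 5 controls lay between 20.0 and 22.5 CPM, and the gap was 0.650 of the whole range, above the 0.625 that Dixon's test sets for 6 libraries. It was the only library that stood apart in this way among 20 groups of libraries searched (10 genes in control and in hypoxia), and chance alone gives about 1 in 20. Without control 1 the log2 fold change of Nr1d2 was 0.09 and it was still not called (adjusted p = 0.332).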

How the results depend on the processing

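The count of 8 clock repressors higher and 0 lower held under each other scaling, filter and tool, and 7 to 8 were higher with a library left out, Cry1 being the gene whose call was lost. The other 7 genes called higher (Per1, Per2, Cry2, Nr1d1, Bhlhe40, Bhlhe41, Ciart) kept their call in all 18 alternatives, with adjusted p-values of at most 0.000465. Libraries 1 to 5 without the block are all libraries but control 6, so this fit was counted under both names. Nr1d2 changed sign without control 3 (-0.0026) and without hypoxia 4, ran from -0.03026 to 0.0941 with a library left out, and was not called in either. Hlf and Thra, not called, changed sign with RLE factors (0.007556 and 0.004569), with no filter (0.008254 and 0.003188) and in DESeq2 (0.00399 and 0.008034), Thra also with the replicate block (0.001445), and with a library left out they ran from -0.1811 to 0.1015 and from -0.04255 to 0.02617. Of the paralogue ratios, that of Per1 to Per2 ran from -0.08041 to 0.0202 with a library left out; the other 5 kept their direction and call, also with a prior count of 5.

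The labels do not say whether replicate numbers pair the libraries, and 5 same-numbered pairs are too few to decide it. Correlations of deviations ran from -0.370 to 0.369 between same-numbered libraries and from -0.36 to 0.46 between differently numbered ones. Not every library correlated best with its own number. With the replicate block (numbers 1 to 5), 1300 genes were higher and 1637 lower, beside 1519 and 1875 without the block, 7 repressors were higher (Cry1 at an adjusted p of 0.0510) and 1 clock activator, Rora, was higher instead of 3 (adjusted p = 0.0570 for Arntl and 0.0754 for Rorb). The count of lower activators, 1 in the reported analysis, was 0 with RLE factors, with no filter, in DESeq2 and over the libraries numbered 1 to 5 without the block (an alternative added after seeing the data), 2 with library totals alone and with a mean CPM of at least 1, and 0 to 1 with a library left out. In DESeq2, 5 modifiers of repressor proteins were higher instead of 2, and with a library left out 2 to 4 (4 without control 1), while lower activity genes numbered 0 to 1. Higher activity genes, 7 in the reported analysis, numbered 6 to 8 with a library left out. They numbered 6 with library totals alone and with the replicate block, and 8 with no filter and in DESeq2. The cause of these shifts was not tested. Raw counts were lowest for Ciart, 53 in control 1, and its coefficient of variation over the controls was 26.7%.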
